A study of Mus musculus with 12 samples.

Results

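The genes described here encode the protein components of the cytosolic ribosome. They were taken as all genes with a probe set annotated to exactly 1 gene symbol of the forms Rpl or Rps followed by a number (with an optional a, x or l), together with Rplp0, Rplp1, Rplp2 and Rpsa, and with pseudogene symbols left out. The rule found 72 genes on 381 probe sets, among 18820 genes with such a probe set: 46 of the large subunit and 26 of the small subunit. Each gene was read from its probe set with the highest mean over the 12 arrays. A filter on low signals kept 71 of the 72, among 12961 genes tested, and left out Rpl39l. The symbol rule itself used no expression value, which entered only through the mean over the arrays and through the filter. The gene set was chosen with earlier results of these data known.

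The study measured gene expression in sorted mouse B lymphoma cells on Mouse Gene 1.1 ST arrays (Affymetrix), 3 arrays in each of 4 groups. All cells came from primary cultures of B lymphomas that arose in l-MYC;B1-8f mice (C57BL/6J x BALB/c), in which a MYC transgene is combined with a B1-8 heavy chain that Cre can delete. Tumours 2567, 2646 and 2676 each gave 1 array to every group, and tumour was a block in each fit. The cultures had been transduced with TAT-Cre, a cell-permeable recombinase, to remove the B cell receptor (BCR), and cells were sorted after 4 days of mixed culture.

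The CHIR99021-treated BCR-negative cells had spent those 4 days mixed with BCR-positive cells and with CHIR99021, an inhibitor of the kinase GSK3. The BCR-independent cells were 1 clone per tumour (clone 8 of tumour 2567, clone 7 of 2646, clone 1 of 2676), obtained from BCR-negative cells by long culture, and each clone was cultured together with its own tumour's BCR-positive cells. The BCR-negative and the BCR-positive cells, both untreated, were sorted from mixtures of both. The labels do not give the dose of CHIR99021 or say whether a tumour's arrays came from 1 culture, and the titles of the untreated BCR-negative and BCR-positive arrays of tumours 2646 and 2676 carry a mark "(2)" whose meaning is not given.

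Ribosomal proteins coat and fold the ribosomal RNAs of the small subunit, which reads the messenger RNA, and of the large subunit, which joins amino acids. Their own messenger RNAs typically begin with a C followed by a run of pyrimidines, the 5′ terminal oligopyrimidine or TOP motif. Through this motif the kinase mTORC1 and the binding protein LARP1 set how much of each messenger is translated, so that protein output can move while the messenger level does not. MYC is known to raise the transcription of ribosomal protein genes, and B lymphomas driven by it depend on a high rate of protein synthesis.

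The start of these genes is shown for 8 members because the TOP motif is the sequence feature by which they are known to be coordinated. Rps6, Rpl28 and Rpl15 show long runs, and the other 5 have values on which the comparisons turn. Each line gives 12 bases before and 18 bases from the annotated transcript start, 5′ to 3′, from RefSeq (build GRCm38.p6), and capitals mark the longest run of at least 6 bases of C or T that opens with C and begins within 25 bases of the start.
Rps6: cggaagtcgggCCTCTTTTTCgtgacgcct
Rpl28: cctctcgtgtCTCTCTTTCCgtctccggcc
Rpl15: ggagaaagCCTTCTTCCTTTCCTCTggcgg
Rpl14: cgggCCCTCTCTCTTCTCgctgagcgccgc
Rplp2: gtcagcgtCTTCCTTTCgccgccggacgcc
Rps2: cagtcgagatctcgcgCTTCTTggagcact
Rps28: accgcgtgcggtctcgcgagagcgaaagtg
Rpl3l: tgttctagctctgtcatttgacctctggtg
The windows lie on the plus strand for Rpl28 (chr7:4792953-4792982), Rpl14 (chr9:120571505-120571534), Rplp2 (chr7:141447639-141447668) and Rpl3l (chr17:24727814-24727843, the first of 2 annotated starts). The plus strand also holds that of Rps2 (chr17:24720051-24720080). The windows lie on the minus strand for Rps6 (chr4:86857350-86857379), Rpl15 (chr14:18270969-18270998) and Rps28 (chr17:33824545-33824574). In the first 5 the run covers the annotated start, and it is 10 bases long in Rps6 and 17 in Rpl15, while in Rps2 a run of 6 begins downstream of it. The windows of Rps28 and Rpl3l hold no such run at this setting.

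RefSeq windows were matched for 58 of the 72 genes (70 starts). This run of C or T occurred in 48 of these 70 windows (68.6%), against 36.3% of the 32851 windows of all genes. The letters CCGGAAG, the core bound by ETS factors, occurred on either strand within the 300 bases around the start in 37.1% of the windows of ribosomal protein genes, against 8.9% of all windows. CACGTG, the E-box that MYC and MAX can bind, occurred in 11.4% against 7.2%, and AAGATGGC, the core of the YY1 motif, in 7 of the 70 windows against 2.7% of all. CTTTCC on the sense strand within 25 bases of the start occurred in 14.3% against 2.5%. These matches describe letters in the windows and not binding, and a counted run may lie wholly before the annotated start.

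Signals were high for most members. On each array, 60 or 61 of the 71 tested genes lay above the 95th percentile of that array, while array medians were between 3.32 and 3.44 log2 units and maxima between 12.26 and 12.34. Rpl39l, known mainly from testis, had values of 2.62 to 2.86 and exceeded the 40th percentile on 0 of 12 arrays. The testis-expressed Rpl10l averaged 3.19 over the arrays, Rpl3l, the striated-muscle paralogue of Rpl3, 3.57, and Rps4l, a transcribed pseudogene in RefSeq, 3.97. Rplp2, an essential stalk protein, was also dim on its only probe set, with a mean of 4.73. A dim probe set need not mean a rare messenger, since probes differ in response, and RMA compresses differences near background.

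The heavy-chain segment Ighv1-72, which belongs to the B1-8 receptor, was highest in BCR-positive cells. It averaged 5.77 ± 0.73 in CHIR99021-treated, 4.04 ± 0.28 in BCR-independent, 6.44 ± 0.57 in BCR-negative and 9.62 ± 0.30 log2 units in BCR-positive cells (SD, n = 3 each). Treated and untreated BCR-negative cells thus kept more of this signal than the BCR-independent clones, and its source was not tested. Mean levels of 7 B cell markers lay between 7.49 and 8.37 on all arrays, although Ms4a1 stayed at 2.55 to 3.19, below the array medians. Mean levels of T cell, macrophage, neutrophil, erythroid and stromal markers lay between 2.70 and 3.59 on all arrays. Single macrophage markers were higher, Itgam at 4.08 to 5.97, Cd68 at 3.53 to 4.71 and Csf1r at 3.02 to 4.13, while Lyz2, Adgre1 and C1qb did not pass the filter on low signals. In sorted bulk cells, fewer cells of a type and less RNA per cell cannot be told apart, and because each labelling started from 150 ng of total RNA, signals are relative to the RNA of the array.

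Treatment of BCR-negative cells with CHIR99021 addressed what GSK3 inhibition does to cells without the receptor. No ribosomal protein gene passed the test: 0 of 71 were called in treated against untreated BCR-negative cells by limma at a Benjamini-Hochberg adjusted p under 0.05 over all 12961 genes, while 248 genes (1.91%) were called in all. At an unadjusted p under 0.05, 10 members differed, against 16.6% of all genes, and these 10 were all lower in treated cells, where 6.2% of all genes were lower and 10.4% higher at that p. Most members were slightly lower. Of the 71, 61 had a fitted difference below 0, against 43.3% of all genes. The median difference was -0.10 log2 units (a signal 6.99% lower), against 0.03 for all genes tested. The size of this median varied with the scaling, and its sign did not. It was -0.08 after quantile normalization, with 59 members lower, and -0.12 after cyclic loess, with 59 lower. After centring each array on its median it was -0.11, with 61 lower.

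The slight difference was seen in each tumour. The median over the members was -0.06 in tumour 2567, -0.12 in 2646 and -0.13 in 2676, where all genes had medians of 0.06, 0.02 and 0.00. In 46 members the treated array was below the untreated one in every tumour, against 15.8% of all genes. The 3 treated arrays lay wholly below the 3 untreated ones in 17 members, against 4.68% of all genes, and wholly above them in 1, Rps2, against 5.9%. The 95% interval of the difference stayed within 1.5-fold either way for 69 of the 71 members and within 1.25-fold for 41, with Rpl3l and Rplp2 outside the wider bound. The mark in the titles cannot be told apart from treatment in tumours 2646 and 2676, since arrays of like mark pair treated with untreated BCR-negative cells in tumour 2567 alone. With the mark as a further term the median was -0.08, and 56 members were lower. In tumours 2646 and 2676 the mark also separates BCR-independent cells from BCR-negative and BCR-positive cells. It likewise separates treated from BCR-positive cells there, so those comparisons share this limit.

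**Figure D1:**
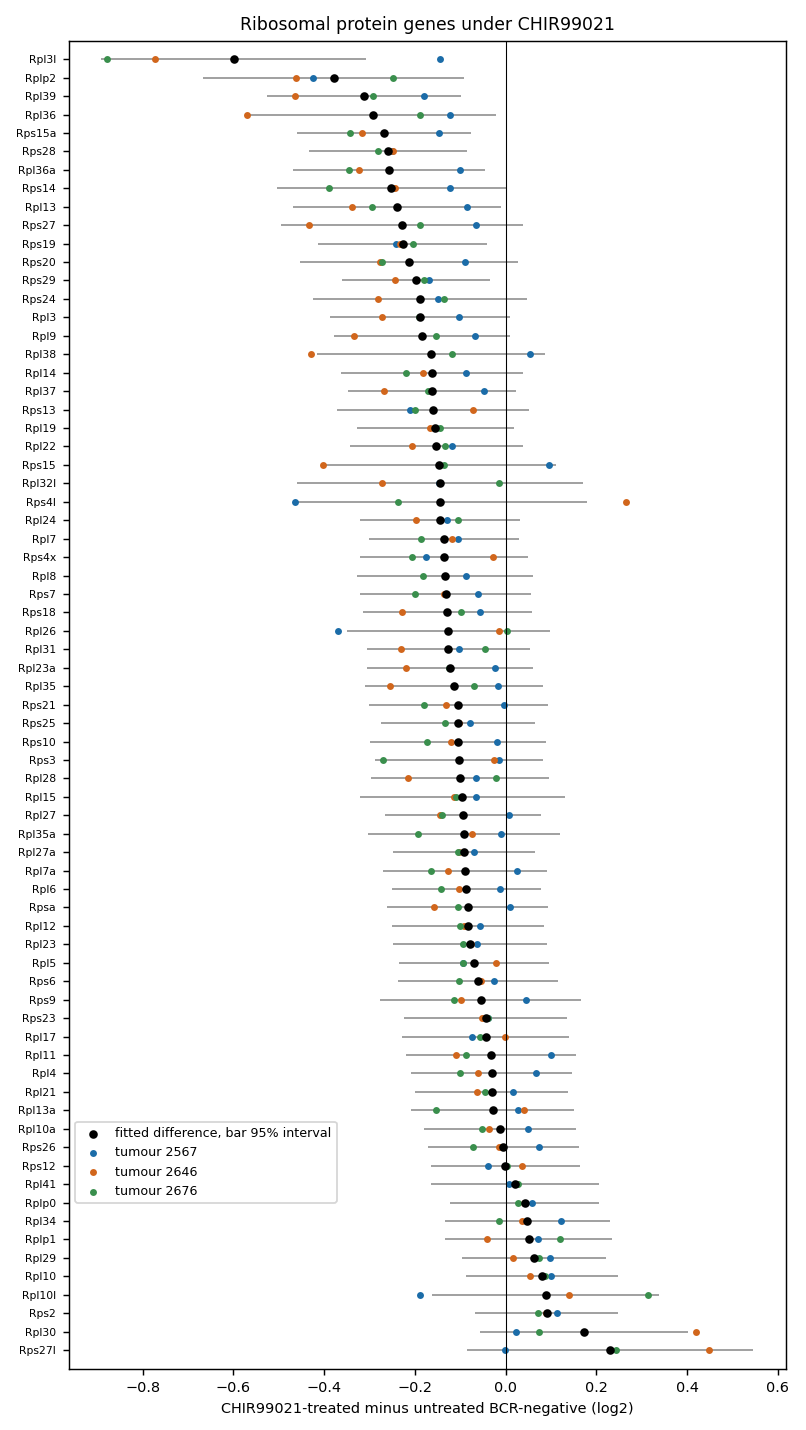
Difference between CHIR99021-treated and untreated BCR-negative cells for the 71 tested ribosomal protein genes, in log2 units. Black points are fitted differences with 95% intervals (n = 3 tumours), and coloured points are the 3 tumours: 61 of the 71 fitted differences lie below 0, and 69 of the 71 intervals stay within 1.5-fold.

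The small subunit was lower in 24 of 26 members with a median of -0.13, and the large subunit in 37 of 45 with a median of -0.10. The difference varied with the brightness of the probe set. Among the 30 members with a mean of at least 11 log2 units the median was -0.05 and 24 were lower. Among the 25 with a mean from 10 to 11 all 25 were lower, with a median of -0.16. The 16 below 10 had a median of -0.14, with 12 lower.

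Within the small subunit, Rps28, a protein near the messenger exit, gave values alike in the 3 tumours. It read 10.42, 10.22 and 10.36 log2 units in treated cells of tumours 2567, 2646 and 2676, against 10.67, 10.46 and 10.64 in untreated BCR-negative cells. The groups did not overlap, and the tumours differed by -0.25, -0.25 and -0.28. The fitted difference was -0.26 ± 0.08 (SE, limma adjusted p = 0.129), short of the threshold. Its 7 probe sets gave differences between -0.32 and -0.24.

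Rps15a, a core protein of the small subunit, read 10.58, 10.29 and 10.42 in treated cells against 10.72, 10.61 and 10.76 in untreated cells, again without overlap, for a difference of -0.27 ± 0.09 (SE, limma adjusted p = 0.148). Rps14, whose loss in humans underlies the anaemia of the 5q- syndrome, differed by -0.25 ± 0.11 and its groups overlapped. Rps19, the gene most often mutated in human Diamond-Blackfan anaemia, read 9.47, 9.09 and 9.23 in treated cells against 9.71, 9.33 and 9.44 in untreated cells. The groups of Rps19 overlapped because tumours differ in level, and within tumours the differences were alike, at -0.24, -0.23 and -0.20 (limma adjusted p = 0.206).

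Rps6, the substrate of the S6 kinases, differed little. It read 11.41, 11.44 and 11.42 in treated cells against 11.44, 11.49 and 11.52 in untreated BCR-negative cells, a difference of -0.06 with a 95% interval of -0.24 to 0.11, which was 0.01 with the title mark as a further term. Rps3, which also takes part in DNA repair, differed by -0.10 (95% interval -0.29 to 0.08), and Rpsa, also known as the laminin receptor, by -0.08 (-0.26 to 0.09).

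Within the large subunit, the P stalk recruits and activates the GTPase factors of translation. Its base proteins Rplp0 and Rpl12 differed by 0.04 and -0.08, and Rplp1 by 0.05, in treated against untreated BCR-negative cells. Rplp2 stood apart from them. It read 4.66, 4.25 and 4.56 in treated cells against 5.09, 4.71 and 4.81 in untreated cells, with no overlap, for a difference of -0.38 ± 0.13 (SE, limma adjusted p = 0.171). That reading rests on the single dim probe set named above.

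Rpl5 and Rpl11 carry 5S ribosomal RNA and, with Rpl23, can bind MDM2, the ubiquitin ligase of p53. Their differences in treated against untreated BCR-negative cells were -0.07, -0.03 and -0.08. The 95% intervals, of which the widest was -0.22 to 0.16 for Rpl11, stayed within 1.25-fold for all 3.

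The lowest fitted value was that of Rpl3l. It read 3.04, 3.12 and 3.49 in treated cells against 3.19, 3.90 and 4.37 in untreated BCR-negative cells. The groups overlapped, the treated arrays lay near the array medians given above, and the tumour differences were -0.15, -0.77 and -0.88. The fitted difference was -0.60 ± 0.13 (SE, limma adjusted p = 0.0547), just outside the threshold, and it was -0.33 with the title mark as a further term. Its paralogue Rpl3, the widely expressed form, read 11.09, 10.98 and 11.07 in treated cells against 11.19, 11.25 and 11.26 in untreated cells, without overlap, a difference of -0.19 ± 0.09 (limma adjusted p = 0.325).

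Other large subunit members with low fitted values included Rpl39, Rpl36 and Rpl36a. Rpl39, a short protein of the peptide exit tunnel, read 10.47, 10.14 and 10.58 in treated cells against 10.65, 10.61 and 10.87 in untreated cells, for a difference of -0.31 ± 0.09 (limma adjusted p = 0.133), and the groups did not overlap. Rpl36 differed by -0.29 ± 0.12 and Rpl36a by -0.26 ± 0.09, which was -0.10 with the title mark as a further term. In Rpl36 the treated array of tumour 2646, at 9.50, was well below the other treated arrays at 10.17 and 9.94.

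The other paralogue pairs showed small differences. Rps27 differed by -0.23 ± 0.12, while its p53-inducible paralogue Rps27l had the highest fitted value, 0.23 ± 0.14 (limma adjusted p = 0.477). Rps27l read 8.62, 8.63 and 8.42 in treated cells against 8.62, 8.18 and 8.17 in untreated cells, so tumour 2567 showed no difference at this precision, and with the title mark as a further term the value turned to -0.02. Rps4x differed by -0.14 and Rps4l by -0.14, with tumours of opposite sign for Rps4l. Rpl10, which completes the large subunit at a late step, differed by 0.08 and Rpl10l by 0.09. Rpl22 and Rpl7 differed by -0.15 and -0.14.

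The 10 members with higher values were Rps27l, Rpl30 (0.17 ± 0.10), Rps2, Rpl10l, Rpl10, Rpl29 (0.06), Rplp1, Rpl34 (0.05), Rplp0 and Rpl41 (0.02). Rps2, at the messenger entry channel of the small subunit, read 11.81, 11.78 and 11.72 in treated cells against 11.69, 11.69 and 11.65 in untreated BCR-negative cells, a difference of 0.09 ± 0.07 (limma adjusted p = 0.605) with groups that did not overlap. All 18 of its probe sets were higher, between 0.05 and 0.10.

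**Figure D2:**
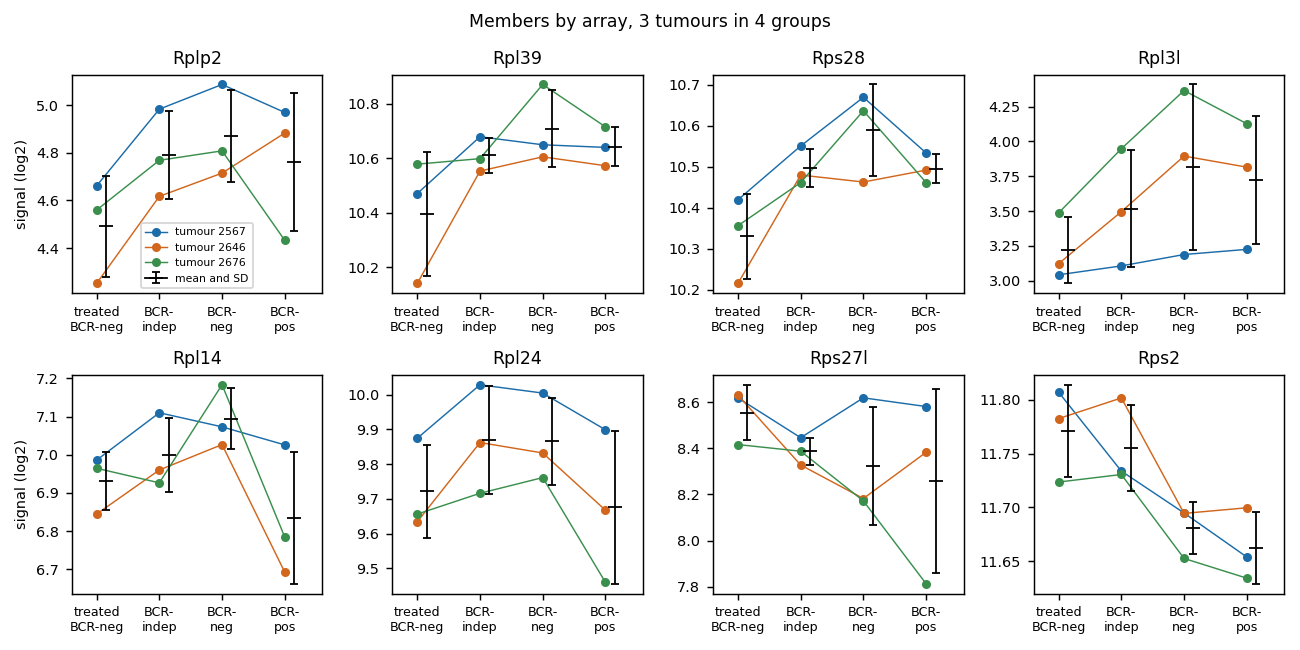
Signal of 8 members on every array, in log2 units, with 1 coloured line per tumour across the 4 groups (each axis has its own range and does not start at 0) and the mean and SD of each group in black. Treated arrays of Rps28, Rpl39 and Rplp2 lie below the untreated BCR-negative ones, Rps2 runs the other way, and Rpl3l differs mainly in tumours 2646 and 2676.

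Several probe sets measured 55 of the members. In treated against untreated BCR-negative cells, 309 of the 380 probe sets of tested members were lower, with a median of -0.10, and in 49 of the 55 genes all probe sets had the same sign. The 24 probe sets of Rpl29 were all higher, from 0.03 to 0.08, and of the 41 of Rpl21, 40 were lower, from -0.08 to 0.01 in all. Probe sets of these families can share sequence with one another and with processed pseudogenes, which are numerous for ribosomal protein genes, so they are not independent measurements.

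**Figure D3:**
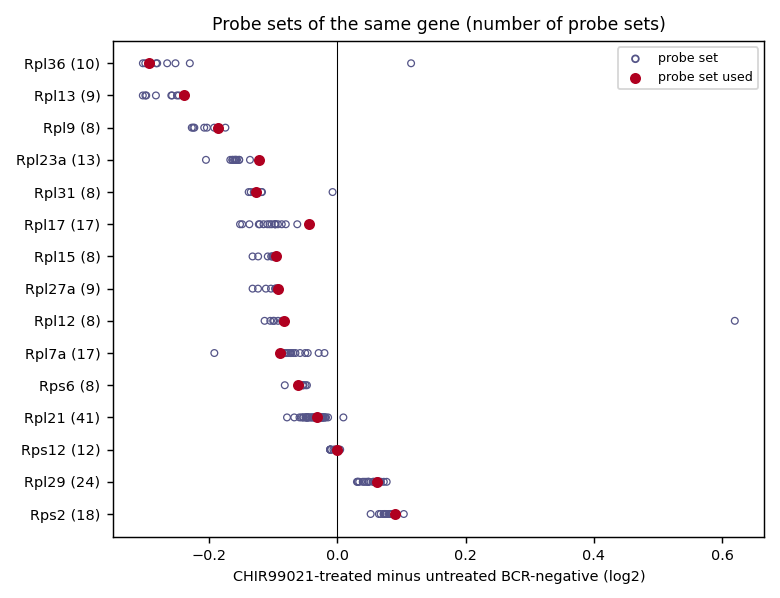
Difference between CHIR99021-treated and untreated BCR-negative cells, in log2 units, for every probe set of the 15 members with at least 8 probe sets (number in brackets), with the probe set used in red. Probe sets of a gene lie close together, except 1 of Rpl12 at 0.62 and 1 of Rpl36 at 0.12.

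Members with and without a pyrimidine run as defined above had medians of like size. Such a run may lie wholly before the annotated start, as in Rpl39 (8 bases from -20) and Rps15a (10 bases from -15). The split therefore does not separate TOP messengers from others. The 43 tested members with a run had a median of -0.10 in treated against untreated BCR-negative cells, with 40 lower, and the 14 matched members without one had a median of -0.14, with 10 lower. Rps28 and Rpl3l, printed above without a run, and Rplp2, with a run of 9, were among the members with the lowest values, and Rps6 and Rpl15, with runs, differed by -0.06 and -0.10. Members with CCGGAAG and those without it had the same median of -0.10.

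Loss of the receptor was read from BCR-negative against BCR-positive cells. Here 0 of 71 members were called by limma, with 1 gene (0.00772%) called in all, and 2 members had an unadjusted p under 0.05, against 3.19% of all genes. Both were higher in BCR-negative cells, as were 1.47% of all genes at that p. The fitted difference was above 0 for 62 members, against 49.7% of all genes, with a median of 0.04, against 0.00 for all genes. After quantile normalization of the deposited values 17 members instead of 9 were lower. Tumour 2676 carried most of this: the tumour medians were 0.03, 0.00 and 0.13 in 2567, 2646 and 2676, and without tumour 2676 the median was 0.01 and 31 of 71 members were lower. In 17 members the BCR-negative array was above the BCR-positive one in every tumour, against 12.4% of all genes, and in 5 the groups did not overlap, against 2.5%. All 71 intervals stayed within 1.5-fold.

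Rpl14 had the highest value of this comparison. It read 7.07, 7.03 and 7.18 in BCR-negative cells against 7.03, 6.69 and 6.78 in BCR-positive cells, with no overlap, for a difference of 0.26 ± 0.09 (SE, limma adjusted p = 0.999). Rpl24, whose reduced dosage slows MYC-driven lymphoma in mice, averaged 9.87 ± 0.13 in BCR-negative cells and 9.68 ± 0.22 in BCR-positive cells (SD, n = 3 each), and it was higher in each tumour. Its groups overlapped, and the difference of 0.19 ± 0.08 did not pass the test (limma adjusted p = 0.999). Rpl13 (0.17), Rpl38 (0.16), Rps4l (0.15), Rpl3 (0.15), Rplp2 (0.11) and Rpl28 (0.11) followed. Rpl30 (-0.08), Rpl32l (-0.06), Rplp0 (-0.05), Rpl29 (-0.04), Rps4x (-0.02), Rplp1 (-0.02), Rpl41 (-0.01) and Rpl10 (0.00) had the lowest values. The 5S proteins Rpl5 and Rpl11 both differed by 0.06, and Rps6 by 0.03.

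BCR-independent clones were set against BCR-negative cells because they were not counterselected in culture. Among the members 0 of 71 were called by limma, with 1 gene (0.00772%) called in all, and 1 member, Rpl3l, had an unadjusted p under 0.05, against 5.99% of all genes. It was lower in BCR-independent cells, as were 2.38% of all genes at that p. Of the 71, 40 were lower, against 44.7% of all genes, and the median was -0.01, against 0.02. The split depended on the scaling: 49 were lower after quantile normalization and 55 after centring each array on its median. The tumours did not run the same way, with medians of 0.03 in 2567, 0.06 in 2646 and -0.09 in 2676, and without tumour 2676 the median was 0.04 and 23 were lower.

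Rpl3l read 3.11, 3.50 and 3.95 in BCR-independent cells against 3.19, 3.90 and 4.37 in BCR-negative cells, a difference of -0.30 ± 0.13 (SE, limma adjusted p = 0.814) with overlapping groups, and it was -0.03 with the title mark as a further term. Rps19 had the next lowest value, -0.17 ± 0.08, with tumour differences of -0.28, 0.00 and -0.22. Rpl13, Rpl39 and Rpl14 differed by -0.10, Rps28 by -0.09, and Rps14 and Rplp2 by -0.08. Rpl35a (0.12), Rpl30 (0.12), Rps2 (0.07), Rpl41 (0.07), Rps27l (0.06), Rplp0 (0.06), Rpl37 (0.05) and Rps6 (0.05) had the highest values, and that of Rps27l turned to -0.18 with the title mark as a further term. The groups did not overlap in 2 members: Rpl13 was lower, against 1.55% of all genes, and Rps2 higher, against 2.99%. For 62 of the 71 members the 95% interval stayed within 1.25-fold.

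BCR-independent cells against BCR-positive cells likewise gave 0 of 71 members called by limma, with 11 genes (0.0849%) called in all, and 1 member at an unadjusted p under 0.05, Rpl24, against 9.61% of all genes. It was higher in BCR-independent cells, as were 5.38% of all genes at that p. The median was 0.03, against 0.02 for all genes, and 17 members were lower, against 44.3% of all genes. This was not kept under other scalings, with 26 lower after cyclic loess, 36 after quantile normalization and 33 after centring. Rpl24 differed by 0.19 ± 0.08 (limma adjusted p = 0.468), Rpl35a by 0.18 and Rpl14 by 0.16, and Rpl3l had the lowest value, -0.21, which turned to 0.06 with the title mark as a further term. In 2 members the BCR-independent arrays lay wholly above the BCR-positive ones, against 4.79% of all genes.

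Treated BCR-negative cells were also set against the other groups, with which the comparisons above share arrays. Against BCR-positive cells, 0 of 71 members were called by limma, with 104 genes (0.802%) called in all, and 5 members, all lower, had an unadjusted p under 0.05, against 15.6% of all genes (6.11% lower and 9.52% higher). The groups did not overlap in 8 members that were lower, against 4.51% of all genes, and in 1 that was higher, Rps2, against 6.99%. The median was -0.05 and 53 members were lower, against 42.9% of all genes. Tumour 2646 gave -0.13, while 2567 and 2676 gave -0.02 and 0.01, and without tumour 2646 the median was -0.01. Rpl3l had the lowest value, -0.51 ± 0.13 (limma adjusted p = 0.108), followed by Rplp2 (-0.27) and Rpl39 (-0.25), and Rps27l (0.30) and Rpl34 (0.14) had the highest.

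Against BCR-independent cells, 0 of 71 members were called by limma, with 21 genes (0.162%) called in all, and 9 members, all lower, had an unadjusted p under 0.05, against 12.3% of all genes (5.26% lower and 7.05% higher). In 36 members the treated array was lower in every tumour, against 16.5% of all genes, and in 13 the treated arrays lay wholly below, against 3.92%. The median was -0.10 and 61 members were lower, against 47.2% of all genes. The tumour medians were -0.07, -0.21 and -0.02, and without tumour 2646 the median was -0.05. Rpl36a read 10.25, 9.99 and 10.09 in treated cells against 10.60, 10.39 and 10.26 in BCR-independent cells, with no overlap and a difference of -0.31 ± 0.09 (SE, limma adjusted p = 0.240). Rpl36 and Rpl3l followed, both at -0.30.

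**Figure D4:**
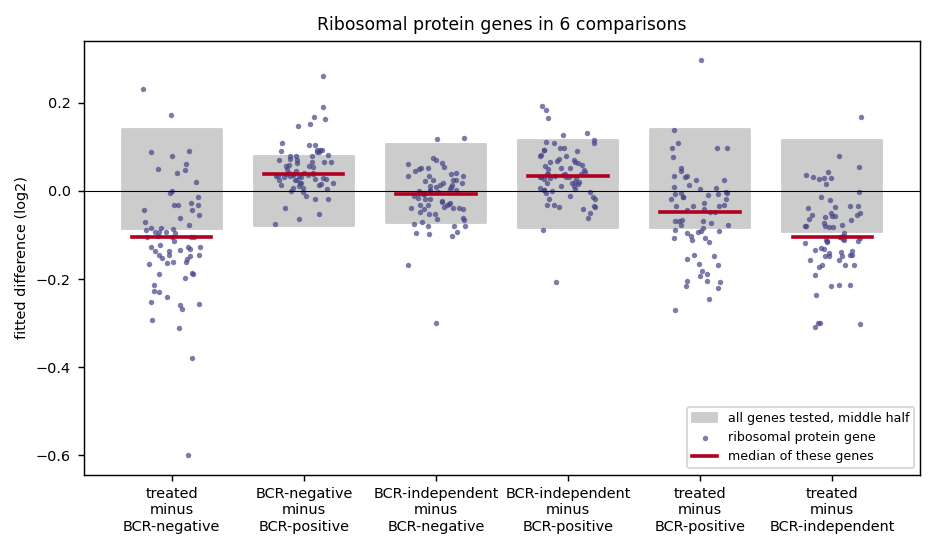
Fitted differences of the 71 tested ribosomal protein genes (points) in 6 comparisons, in log2 units, with their median (red) and the middle 50% of all 12961 genes tested (grey). The medians lie between -0.10 and 0.04, and both comparisons of treated cells with BCR-negative or BCR-independent cells have 61 of 71 points below 0.

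Some single arrays weighed on these medians. Taken as deviations from the mean of the same tumour, the median over the members was -0.11 on the treated array of tumour 2646, with 61 of 71 members below that mean. It was 0.09 on the untreated BCR-negative array of tumour 2676, with 10 below, and 0.08 on the BCR-independent array of tumour 2646, with 9 below. Medians over all genes on these 3 arrays were 0.00, 0.00 and 0.01. The treated array of tumour 2646 also had the highest values of Cd68 (4.71) and Csf1r (4.13), against 4.17 and 3.11 on the BCR-negative array of that tumour, and their part in the median was not tested.

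**Figure D5:**
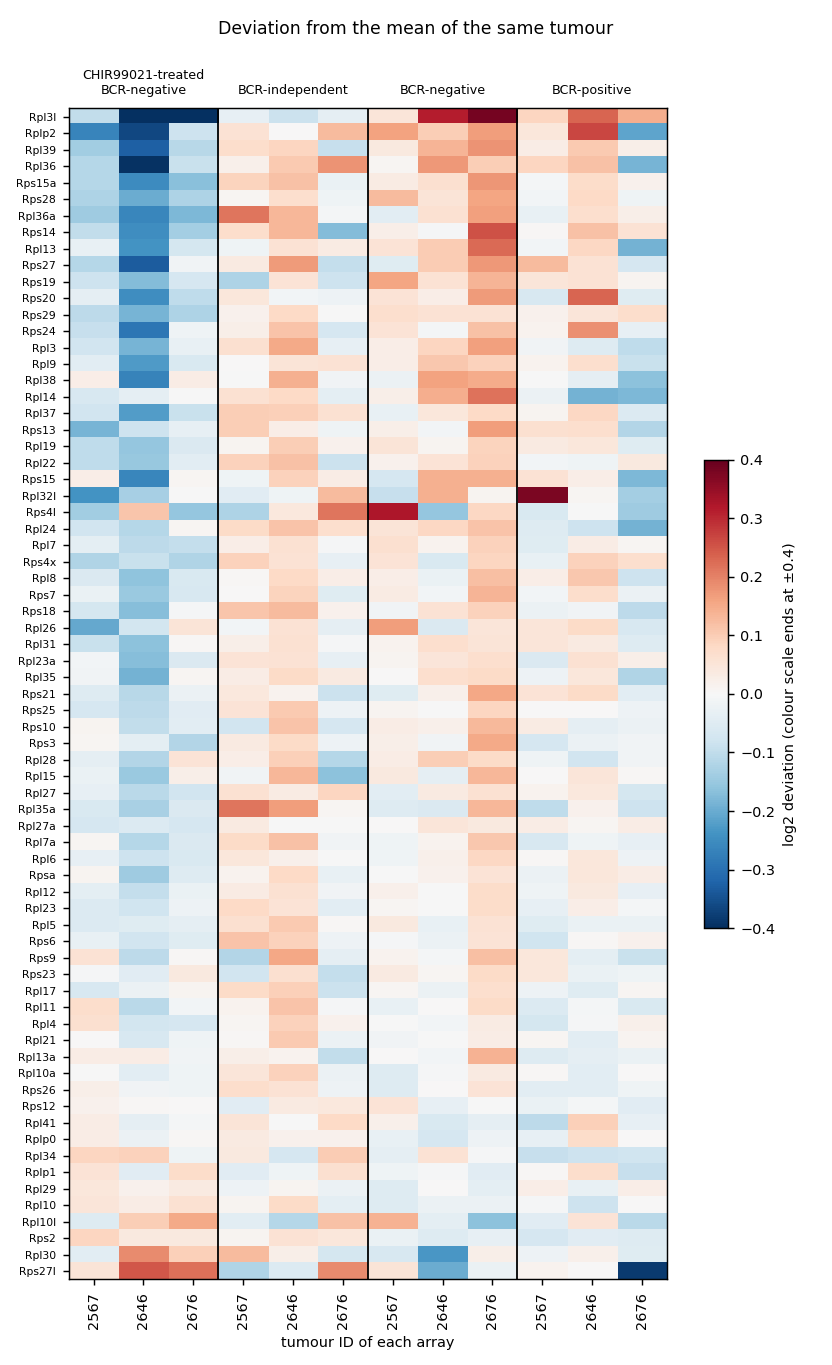
Deviation of each tested ribosomal protein gene (rows, ordered by the difference between treated and untreated BCR-negative cells) from the mean of its tumour on each of the 12 arrays (columns), in log2 units. The treated array of tumour 2646 is blue over most rows, with a median of -0.11, and the BCR-negative array of tumour 2676 is red over most rows, with a median of 0.09.

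Members varied little, and they varied together. The SD over the 12 arrays was 0.11 log2 units for the median member, against 0.19 for the median gene. Most members are much brighter than the median gene, and genes of like brightness were not set beside them. Of the variance of the median member, 36.0% lay between tumours and 28.4% between groups, against 39.8% and 20.7% for all genes. After group and tumour means were removed, the mean pairwise correlation across the 12 arrays was 0.32 among members and 0.02 among all genes, a description of profiles that share arrays and normalization and have 6 residual degrees of freedom.

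Genes that act around the ribosomal proteins were read from 3 further lists in treated against untreated BCR-negative cells. Of 23 measured genes for translation factors and other products of TOP messengers, 0 were called by limma (1.91% of all genes), 12 were lower (43.3% of all genes), the median was -0.02, and 2 had an unadjusted p under 0.05 (16.6% of all genes). Eef1d (0.28) and Eif3f (-0.31) had the smallest p of them. Fau, whose product is processed into the small subunit protein eS30, differed by -0.02. Rps27a, Rpl22l1 and Rpl36al had no probe set of a single symbol and are not described, and Rpl7l1 differed by 0.31 (limma adjusted p = 0.139).

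Of 23 measured regulators of mTORC1 and TOP translation, 3 fell and 0 rose (1.91% of all genes were called), and the list median was 0.01, against 0.03 for all genes. Pdcd4, an inhibitor of the helicase eIF4A, read 6.72, 6.70 and 6.92 in treated cells against 8.44, 8.32 and 8.59 in untreated BCR-negative cells, and it fell by 1.67 ± 0.14 log2 units (SE, limma adjusted p = 0.00236). Mtor, the kinase itself, fell by 0.72 ± 0.13 (limma adjusted p = 0.0372) and Maf1, a repressor of RNA polymerase III, by 0.82 ± 0.17 (limma adjusted p = 0.0499). Eef2k, which slows elongation, differed by -0.86 and did not pass (limma adjusted p = 0.0716). Larp1 differed by 0.26 and did not pass either. With array weights, after cyclic loess and after centring each array, Eef2k did pass (limma adjusted p = 0.00544, 0.0476 and 0.0356). It passed under no other setting. Pdcd4 was called under 13 of 14 other settings and missed the threshold without tumour 2567 (limma adjusted p = 0.0571), with a range of 0.000231 to 0.0571. Mtor was called under 8 of the 14 (adjusted p from 0.00616 to 0.959) and Maf1 under 6 (0.00501 to 0.347), and neither was called when any tumour was left out, without the block or with the title mark as a further term.

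Of 19 measured chaperones of ribosomal proteins and factors of ribosome export and quality control, 17 were higher in treated cells, against 56.7% of all genes, with a median of 0.22, against 0.03. Of the 19, 1 passed the test, against 1.91% of all genes. Tsr2, the chaperone of Rps26, rose by 0.50 ± 0.10 (limma adjusted p = 0.0405), reading 6.47, 5.78 and 5.73 in treated cells against 6.04, 5.22 and 5.24 in untreated BCR-negative cells. This call was kept under 4 of 14 other settings (adjusted p from 0.00396 to 0.827) and was lost when any tumour was left out, without the block and with the title mark as a further term, where the difference was 0.36. Rps26 itself differed by -0.01 (95% interval -0.17 to 0.16). Heatr3, which helps import Rpl5, differed by 0.55, without passing, and by 0.25 when its probe sets were averaged. Lsg1, which acts late in large subunit maturation, differed by 0.32 and Abce1, which recycles ribosomes, by 0.31, without passing. In BCR-negative against BCR-positive and in BCR-independent against BCR-negative cells, 0 genes of these 3 lists were called.

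Most of the B cell markers tested were also lower in treated cells. Of 6 tested, 5 were lower than in untreated BCR-negative cells, against 43.3% of all genes, with a median of -0.39. By limma 0 were called (1.91% of all genes), and 3 had an unadjusted p under 0.05 (16.6% of all genes). The list was not uniform: Blnk, counted as lower, averaged 8.04 in both groups, and Cd79a was higher, at 10.13 against 10.08. Over the 7 B cell markers with a probe set, the untested Ms4a1 included, array means ran from 7.49 to 7.96 in treated and from 7.84 to 8.34 in untreated BCR-negative cells, and their part in the differences of the ribosomal protein genes was not tested.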

How the data were processed

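The authors deposited log2 expression signals for 35556 probe sets, which per the submitters' processing notes came from Affymetrix Power Tools with the RMA method, with no version stated in the labels or headers. RMA corrects background, equalises array distributions and summarises probes, so an equal shift of all genes cannot be seen. Values were used as deposited, and 0 columns lacked a sample. Of the probe sets, 21218 had 1 gene symbol, 1881 several and 12457 none, and 53 of those with several list 20 of the 72 symbols and were left out.

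A probe set was kept when 3 arrays or more had it above their own 40th percentile (23197 kept), and the one with the highest mean stood for its gene. In R 4.3.3, limma 3.58.1 (lmFit, eBayes) fitted group and tumour over 12 arrays, with 6 residual and 3.41 prior degrees of freedom, and p-values were Benjamini-Hochberg adjusted over 12961 genes. The fit was tested on simulated data with independent noise for each gene and differences larger than those of most members. That test therefore does not cover small differences shared by genes that vary together. Figures were drawn in Python 3.11.15 with matplotlib 3.10.9. The number of arrays limits precision. The p-values reflect only how far these samples spread, and part of that may be technical.

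The tumour number pairs arrays: after group means were removed, arrays sharing a tumour had correlations of 0.28 to 0.79, other pairs had -0.72 to 0.16, and each of the 12 arrays was closest to one from its own tumour. Genes and lists were chosen with earlier results of these data known, so no p is given over a list. Named genes are the 8 members with the highest and the 8 with the lowest fitted difference in each of the first 3 comparisons (3 each way in the others), fixed members of the P stalk, the 5S group, disease-linked proteins and paralogue pairs, and, of the lists outside the set, the genes with the smallest p. Sequences are RefSeq's, GRCm38.p6, and 14 members had no window in the table used. Alternatives were 14 other settings of block, filter, variance model, array weights, scaling, probe set choice and tumours.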

Additional observations from a re-analysis of the deposited data

How the results depend on the processing

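Over 14 other settings in 6 comparisons, the number of ribosomal protein genes called was the same in 80 of 84 cases. The exceptions concern CHIR99021-treated against untreated BCR-negative cells: 10 members were called with array weights (of 1635 genes in all), and 1, Rpl3l, with an intensity trend and robust variances, with cyclic loess, and with each array centred on its median. The adjusted p of Rpl3l there ranged from 0.00375 to 0.767 over these settings, and its difference from -0.83 to -0.33. Without the replicate block for tumour, which pairs the arrays, 0 members were called in each of the 6 comparisons. Leaving out any tumour also called 0. Calls over all genes in treated against untreated BCR-negative cells, 248 as reported, came to 12 without the block, 32 with the title mark as a term, 109 from the 2 groups alone, and 1 to 17 when a tumour was left out. The median over the members moved past the spread of the tumours in BCR-independent against BCR-positive cells alone: it was 0.0642 with the title mark as a term, 0.0197 after cyclic loess, -0.00023 after quantile normalization and 0.00318 after centring. In treated against untreated BCR-negative cells it ranged from -0.138 to -0.0868 when a tumour was left out. Of 2458 values of named members, 2404 kept within the spread between tumours or their side of the threshold, 43 moved (23 of them with the title mark as a term), 11 passed the threshold that they missed before, and 0 called values reversed, while 14 of the moved values, none of them called, changed sign. The cause was not tested. Small numbers of arrays and signals near background, as for Rpl3l and Rplp2, limit these values.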

Other observations

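One probe set of Rpl12, a protein at the base of the P stalk, ran against the other 7 of its gene, and it is named here because of its values. It read 6.99, 6.60 and 6.88 log2 units in CHIR99021-treated cells of tumours 2567, 2646 and 2676, against 7.03, 5.67 and 5.91 in untreated BCR-negative cells. In BCR-independent cells it read 7.04, 6.06 and 6.79, and in BCR-positive cells 6.83, 5.69 and 6.51. The difference was thus in tumours 2646 and 2676, for a mean of 0.62 between treated and untreated BCR-negative cells, while the other 7 probe sets of Rpl12 gave negative differences down to -0.11. What sequence this probe set detects was not tested.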
